A study of Mus musculus with 45 samples.

Results

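Acute-phase proteins are plasma proteins whose synthesis changes during inflammation, and 10 such mouse genes were followed here: the fibrinogen chains Fga, Fgb and Fgg, serum amyloid P (Apcs), the serum amyloid A genes Saa1, Saa2 and Saa3, haptoglobin (Hp), hemopexin (Hpx) and lipocalin 2 (Lcn2). The array held 9 of the 10 genes, by 12 of its 12488 probe sets that carry 1 of these symbols alone. All genes with such a probe set numbered 8251. Saa1 had no probe set carrying its symbol alone. The set was selected on measured values, namely the liver strain differences of Fga and Apcs, so that difference is described without a test. The measurements came from 45 Affymetrix arrays of liver (16), skeletal muscle (15) and epididymal fat (14) from 6-month-old mice. Their strain was C57Bl/6, written B6 here, or 129S6/SvEvTac, written 129S6, and their diet was labelled low-fat or high-fat. The 12 groups of tissue, strain and diet held 4 arrays each, except B6 low-fat muscle and both groups of 129S6 fat with 3. Each array carried RNA pooled from 2 to 3 mice, so the errors below are spreads between pools. The sources used here describe the composition of a single diet and do not say which label it belongs to. Values are log2 signals as the authors deposited them, on which a difference of 1 is a doubling. In pooled tissue RNA, fewer cells of a type and less RNA per cell cannot be told apart.

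Most of these proteins are made by hepatocytes and secreted into blood. Interleukin 6 acting through STAT3, with C/EBP factors, drives the fibrinogen chains, haptoglobin and hemopexin, while interleukin 1 and NF-kB add to the response of serum amyloid A and lipocalin 2. The 3 fibrinogen chains are assembled into 1 protein, which thrombin turns into the fibrin of a clot. Serum amyloid P is the main acute-phase pentraxin of mice. Serum amyloid A binds to high-density lipoprotein, and Saa3 is made largely outside the liver, by macrophages and adipocytes. Haptoglobin binds free haemoglobin, hemopexin binds free haem, and lipocalin 2 withholds iron by binding bacterial siderophores.

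The fibrinogen genes lie close together on chromosome 3, so their promoters are shown first, with that of Apcs, the other gene that differed by strain in liver, and with the serum amyloid A pair measured on the array. Sequences are from RefSeq on GRCm38.p6, 250 bases upstream of each gene's start, 5′ to 3′ on the strand of the gene. Capitals mark matches on either strand to the STAT motif TTCNNNGAA, the C/EBP motif TTNCNNAA, the NF-kB motif GGNNTTTCC or the HNF1-type motif GTTAAT. Fga lies on the plus strand with its window at chr3:83025903-83026152, Fgb on the minus strand at chr3:83049864-83050113 and Fgg on the plus strand at chr3:83007474-83007723. Apcs lies on the minus strand at chr1:172895055-172895304, Saa2 on the plus strand at chr7:46751583-46751832 and Saa3 on the minus strand at chr7:46715677-46715926.
Fga: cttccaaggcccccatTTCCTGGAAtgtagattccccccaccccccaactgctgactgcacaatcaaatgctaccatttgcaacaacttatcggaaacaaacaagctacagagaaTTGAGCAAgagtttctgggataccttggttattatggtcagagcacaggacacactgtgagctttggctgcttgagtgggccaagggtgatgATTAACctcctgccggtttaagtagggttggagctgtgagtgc
Fgb: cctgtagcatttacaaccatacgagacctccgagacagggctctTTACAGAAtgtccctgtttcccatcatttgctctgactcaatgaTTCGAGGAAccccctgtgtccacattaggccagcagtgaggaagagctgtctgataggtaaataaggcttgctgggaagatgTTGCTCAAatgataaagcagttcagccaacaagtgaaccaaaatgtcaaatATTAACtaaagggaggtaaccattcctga
Fgg: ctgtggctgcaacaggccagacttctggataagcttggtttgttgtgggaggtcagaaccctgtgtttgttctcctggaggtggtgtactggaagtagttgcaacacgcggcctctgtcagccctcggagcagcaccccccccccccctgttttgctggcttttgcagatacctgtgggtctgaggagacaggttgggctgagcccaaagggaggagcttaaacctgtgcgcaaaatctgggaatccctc
Apcs: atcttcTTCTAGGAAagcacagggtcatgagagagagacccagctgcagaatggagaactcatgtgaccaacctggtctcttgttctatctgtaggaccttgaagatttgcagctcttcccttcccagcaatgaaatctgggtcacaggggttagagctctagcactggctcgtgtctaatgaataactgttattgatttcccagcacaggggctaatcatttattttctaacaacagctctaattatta
Saa2: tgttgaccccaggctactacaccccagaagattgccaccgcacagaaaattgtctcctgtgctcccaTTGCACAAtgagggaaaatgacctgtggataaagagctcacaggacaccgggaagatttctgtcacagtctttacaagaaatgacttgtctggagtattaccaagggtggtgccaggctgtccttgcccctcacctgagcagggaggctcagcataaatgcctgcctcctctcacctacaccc
Saa3: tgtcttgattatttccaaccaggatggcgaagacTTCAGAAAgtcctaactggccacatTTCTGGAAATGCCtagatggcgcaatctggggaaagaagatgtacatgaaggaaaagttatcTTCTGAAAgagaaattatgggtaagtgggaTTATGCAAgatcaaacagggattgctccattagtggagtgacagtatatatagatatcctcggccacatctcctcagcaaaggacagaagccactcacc

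The search window ran from 250 bases before to 50 bases after the start. Of the 32851 promoters of that length in the RefSeq table, 8.3% held the STAT motif, 40.7% the C/EBP motif, 5.82% the NF-kB motif and 7.1% the HNF1-type motif, so a C/EBP match alone says little. The windows of Fga and Fgb each held 1 STAT match, 1 HNF1-type match and at least 1 C/EBP match, whereas that of Fgg held none of the 4. Fgb had 3 C/EBP matches, of which the one beginning at base -7 runs over the start and is not capitalised. In the Apcs window the only match was a STAT motif at base -244. Saa3 had 4 C/EBP matches and 1 NF-kB match at base -187, which overlaps the C/EBP match at -191, and Saa2 had 1 C/EBP match. The windows of Saa1 and Saa2 were identical at 95.3% of aligned positions and those of Saa2 and Saa3 at 53.3%. A match is a string of letters and not a shown binding site. Haptoglobin had no entry in that table, and those of Hpx and Lcn2 are not printed.

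Some arrays stood apart, and they touch the results below. In liver these were B6 high-fat replicate 13, in which all 11 macrophage markers were the highest of the 4 arrays, and 129S6 low-fat replicate 11. The Gapdh signal of 3′ probes less that of 5′ probes, which grows as RNA degrades, was 3.26 in the latter array and 0.13 to 0.41 in the others of its group. All 4 B6 high-fat muscle arrays and 1 129S6 low-fat muscle array had a narrow spread of values, with standard deviations over all probe sets of 1.57 to 1.70 against 1.80 to 1.88 in the other muscle arrays. The Gapdh difference also went with diet in B6 muscle, at 1.19 to 3.36 in high-fat and 0.35 to 0.81 in low-fat arrays, without overlap. In 129S6 muscle it reached 2.56 in low-fat and 4.43 in high-fat arrays. In fat, 5 arrays held raised epididymal transcripts, and the Gapdh difference reached 6.03 in B6 high-fat replicate 7 and 5.81 and 5.93 in 129S6 high-fat replicates 12 and 13. Array numbers also ran in series, and the B6 low-fat liver arrays formed a series of their own, so diet and series cannot be told apart in B6 liver. No series held liver arrays of both strains on the same diet, so each liver strain comparison also compares different series. All B6 fat arrays shared a series with 129S6 low-fat replicate 9, and the other 129S6 fat arrays formed another. Strain comparisons in fat thus also compare series, fully on the high-fat and largely on the low-fat diet. The tissues were otherwise as labelled: albumin (Alb) read 12.62 to 13.50 in liver, adiponectin (Adipoq) 11.38 to 12.88 in fat and muscle creatine kinase (Ckm) 9.87 to 12.08 in muscle.

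**Figure D1:**
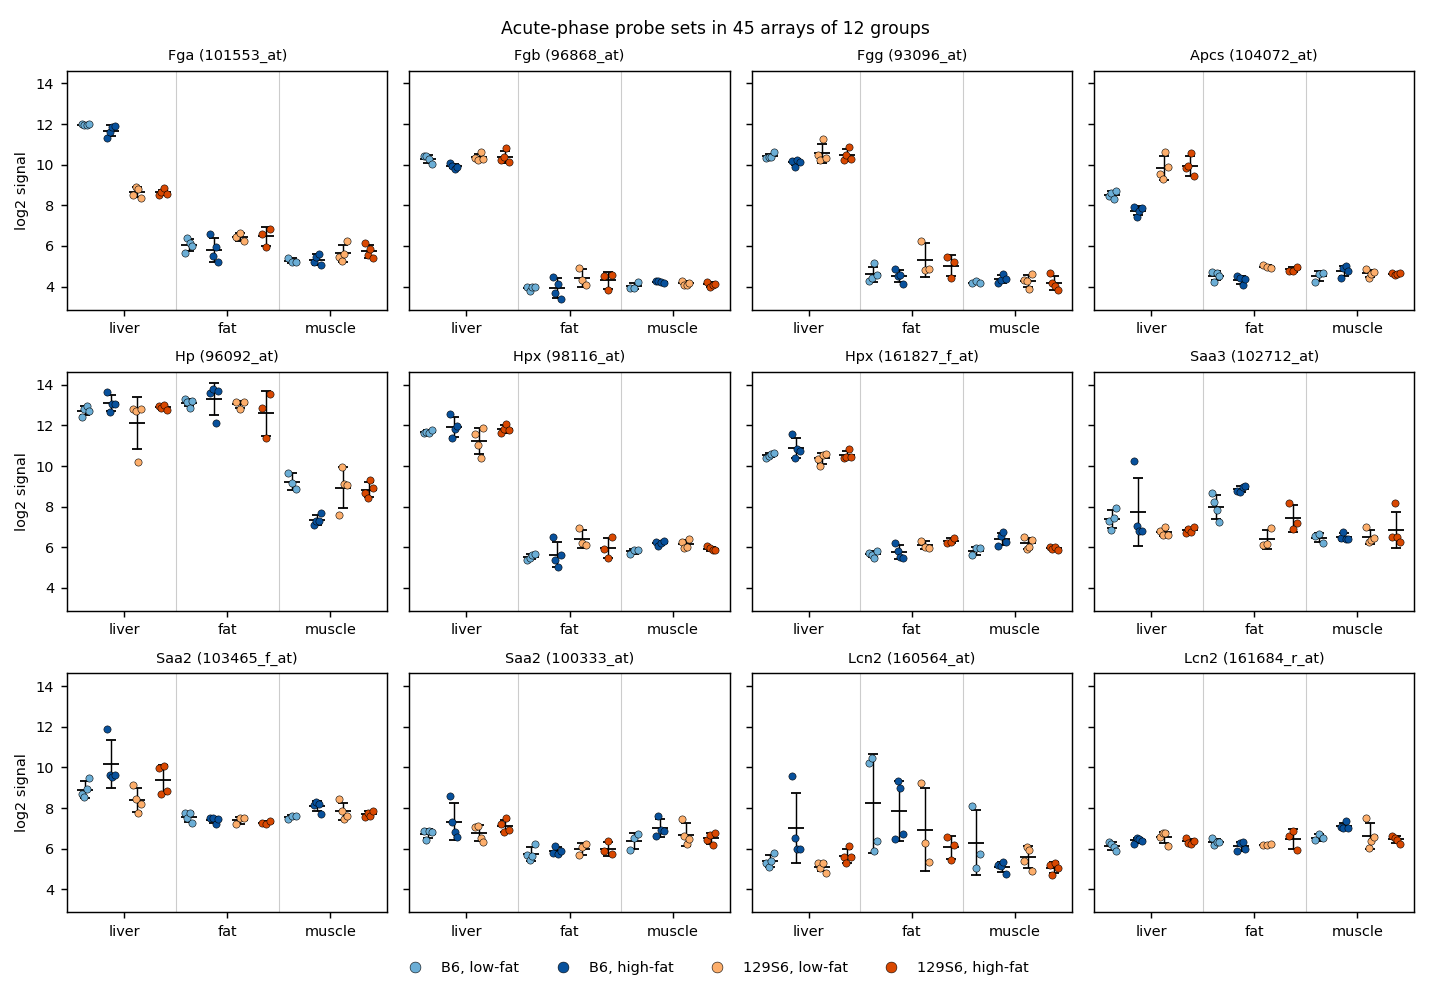
Log2 signal of the 12 probe sets in each array (points), by tissue along the x axis and by strain and diet within a tissue (colours); bars give the mean and standard deviation of 3 or 4 arrays. Fibrinogen chains, Apcs and Hpx were high in liver only, Hp was high in liver and fat, and Fga and Apcs split by strain in liver.

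Across tissues, fibrinogen, serum amyloid P and hemopexin belonged to the liver, haptoglobin to liver and fat alike, and Saa3 had its highest mean over the groups in fat, above muscle but not past the threshold against liver. Of the 9 genes, 6 passed the test in liver against fat, all higher in liver, where 57.7% of all 8251 genes passed. In liver against muscle 8 were higher in liver and 1, Lcn2, was lower, against 68% of all genes. In fat against muscle 4 were higher in fat and 1, again Lcn2, was lower, against 71.5%. Both Lcn2 calls came from the probe set 161684_r_at, at -0.32 and -0.40, and the other set, 160564_at, had the opposite sign, at 0.28 and 1.77. With so many genes past the threshold the counts say little about the members, and the sizes of the differences follow. The median of the 9 genes was 4.04 for liver minus fat and 4.36 for liver minus muscle, where the medians of all genes were 0.01 and -0.11, and for fat minus muscle it was 0.03 against -0.07. All tissue tests used limma over the 45 arrays, as the mean of the 4 strain and diet differences, with Benjamini-Hochberg adjustment over all genes.

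Fgb averaged 10.24 in liver, 4.15 in fat and 4.13 in muscle, and its 16 liver arrays, from 9.81 to 10.82, lay far above every array of the other tissues. The difference of liver minus fat was 6.10 ± 0.09 (SE, limma adjusted p = 6.41e-37) and that of liver minus muscle 6.11 ± 0.09. Fgg averaged 10.40, 4.87 and 4.25, and Fga 10.23, 6.19 and 5.50. Fga and Fgg were also higher in fat than in muscle, by 0.69 ± 0.12 (limma adjusted p = 2.23e-06) and 0.61 ± 0.13 (adjusted p = 0.000104). A single fat array, 129S6 low-fat replicate 9, read 6.26 for Fgg where the other fat arrays reached 5.46, and there all 8 hepatocyte markers were the highest of the group, with Alb at 11.12. It was also the highest fat array for Fgb, at 4.90, for Apcs, at 5.06, and for the Hpx probe set 98116_at, at 6.93. The mean of the 8 hepatocyte markers also went with strain in low-fat fat, at 7.45 to 8.68 in 129S6 and 6.41 to 7.05 in B6, without overlap. In high-fat fat it overlapped, at 6.59 to 7.75 in 129S6 and 6.11 to 7.33 in B6. The part of hepatocyte RNA in the fat values of these genes was not tested.

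Apcs averaged 9.01 in liver against 4.67 in fat and 4.64 in muscle, and Hpx, by the probe set 98116_at, 11.66 against 5.89 and 6.03. Haptoglobin behaved otherwise. It averaged 12.71 in liver and 13.02 in fat, and liver minus fat was -0.31 ± 0.23 (limma adjusted p = 0.250), so no difference was detected between these tissues. Against muscle, where it averaged 8.59, it was higher by 4.13 ± 0.22 in liver (limma adjusted p = 6.21e-19) and by 4.43 ± 0.23 in fat. Saa3 averaged 7.67 in fat, 7.18 in liver and 6.59 in muscle, but in 129S6 low-fat mice fat was the lowest, at 6.40 against 6.74 and 6.52. Fat exceeded muscle by 1.08 ± 0.24 (limma adjusted p = 0.000136) and liver exceeded muscle by 0.58 ± 0.23 (adjusted p = 0.0237), whereas liver minus fat, at -0.49 ± 0.23, did not pass (adjusted p = 0.0677). Saa2, by the probe set 103465_f_at, was higher in liver than in fat by 1.80 ± 0.18 and than in muscle by 1.42 ± 0.17. The suffix marks probes shared within a gene family, so this set may also read Saa1, and the other Saa2 set, 100333_at, gave smaller differences of 1.09 ± 0.15 and 0.34 ± 0.15.

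The genes whose 12 group means ran most nearly parallel to a member were named for each member spanning over 2 log2 units, with likeness measured as the mean absolute difference of centred group means. For Fgb these were Serpinc1 (antithrombin), Ahsg (fetuin A) and Apoh, within 0.14 to 0.16, and for Fgg Cyp2d10, Serpinc1 and Tat, within 0.12 to 0.16. For Hpx they were Cyp2d26, Mug2 and Slc10a1, at 0.16 to 0.19, and for Apcs Hsd3b2, Igfbp2 and Cyp1a2, at 0.20 to 0.23. The nearest to Fga were less close: Ces1c at 0.53, Fabp2 at 0.64 and Reep6 at 0.64. Hp had Cdo1 at 0.40, Apoe at 0.48 and Lrg1 at 0.52, Saa2 had Rgs16 at 0.18, Pctp at 0.21 and Cyp26a1 at 0.24, and Saa3 had Ifi30, Sat1 and Mpeg1, each within 0.28 to 0.29. Mpeg1 is itself a macrophage marker. These are descriptions over 12 groups that share tissue as their main difference.

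Fga split the strains in liver, while the other chains of the same protein did not follow it. On the low-fat diet Fga read 12.01, 11.94, 11.96 and 11.99 in B6 and 8.52, 8.89, 8.81 and 8.36 in 129S6. On the high-fat diet it read 11.32, 11.62, 11.84 and 11.91 in B6 and 8.53, 8.64, 8.84 and 8.56 in 129S6. All 8 B6 arrays lay above all 8 129S6 arrays, with nothing between 8.89 and 11.32. B6 minus 129S6 was 3.33 ± 0.13 for low-fat mice, a 10.1-fold difference in signal, and 3.03 ± 0.13, or 8.17-fold, for high-fat mice. These values chose the gene and are given without a test, and on each diet the strains lay in different array series.

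Fgb read 10.41, 10.43, 10.26 and 10.03 in B6 low-fat liver and 10.32, 10.23, 10.62 and 10.28 in 129S6 low-fat liver, which overlap, and B6 minus 129S6 was -0.08 ± 0.14. On the high-fat diet it read 10.06, 9.96, 9.81 and 9.88 in B6 and 10.24, 10.40, 10.82 and 10.14 in 129S6, a difference of -0.47 ± 0.14 in which all B6 arrays were the lower. Fgg differed by -0.14 ± 0.18 and -0.35 ± 0.18 on the 2 diets, with overlapping groups. For the chain that split the strains, neither fat nor muscle showed a strain difference past the threshold. In fat Fga averaged 6.05 and 5.81 in B6 and 6.44 and 6.47 in 129S6, low-fat first, and in muscle 5.28 and 5.32 against 5.65 and 5.74. B6 minus 129S6 there ran from -0.66 ± 0.29 (high-fat fat, limma adjusted p = 0.543) to -0.38 ± 0.22 (low-fat muscle, adjusted p = 0.808). The sign was opposite to that in liver, but the signals were weak and no such difference passed. Each chain, and also Apcs, was measured by 1 probe set. Whether these probes fit the sequences of both strains equally was not tested.

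**Figure D2:**
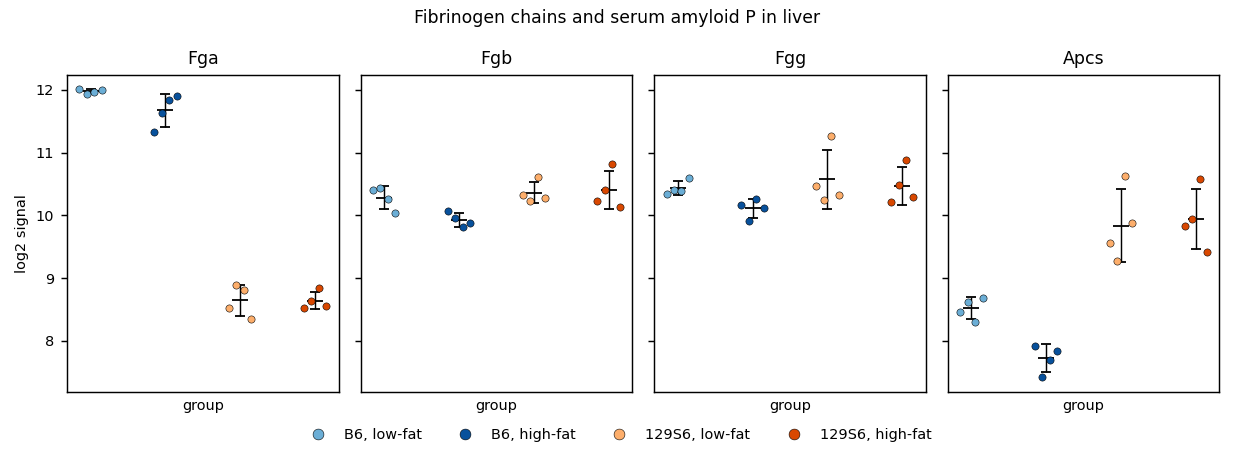
Log2 signal of Fga, Fgb, Fgg and Apcs in the 16 liver arrays, by strain and diet (points are arrays; bars are the mean and standard deviation of 4). Fga is 3.33 and 3.03 higher in B6 (low-fat, then high-fat), Apcs differs the other way, with B6 means of 8.52 and 7.72 against 9.84 and 9.94, and Fgb and Fgg lie close together in all groups.

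Apcs, the mouse pentraxin, split the strains in the opposite direction. On the low-fat diet it read 8.47, 8.63, 8.30 and 8.68 in B6 liver and 9.56, 9.28, 10.62 and 9.88 in 129S6. On the high-fat diet it read 7.93, 7.42, 7.70 and 7.85 in B6 and 9.83, 9.94, 10.58 and 9.42 in 129S6. Every B6 array lay below every 129S6 array, and B6 minus 129S6 was -1.32 ± 0.25 and -2.22 ± 0.25, or 2.49-fold and 4.66-fold lower in signal. The nearest arrays on either side were 8.68 and 9.28. Across all genes 16.3% (low-fat) and 17.8% (high-fat) had strain groups that did not overlap, beside 2 and 3 of the 9 genes here, which is given for scale since the strain difference entered the choice. The liver levels of Hp, Hpx, Saa2, Saa3 and Lcn2 overlapped between the strains on both diets. In fat Apcs was near its lowest readings in both strains, at 4.53 and 4.34 in B6 against 4.98 and 4.84 in 129S6, and B6 minus 129S6 was -0.44 ± 0.14 (limma adjusted p = 0.243) and -0.50 ± 0.14 (adjusted p = 0.213). The groups did not overlap in fat either, as for 4 of the 9 genes in low-fat and 3 in high-fat fat, where 21.7% and 5.1% of all genes had such groups. Hepatocyte markers were also higher in 129S6 than in B6 low-fat fat, as given above, and their part in these strain differences was not tested.

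The same protein also carried the single diet call in liver. In B6 liver, high-fat minus low-fat Apcs was -0.80 ± 0.25 (limma adjusted p = 0.0354), a 1.74-fold fall with no overlap of the 4 arrays on each diet, and in 129S6 liver it was 0.11 ± 0.25 (adjusted p = 0.951). Of the 9 genes it was the only one past the threshold in B6 liver, where 18.2% of all genes passed, and 4 of 9 had groups that did not overlap, against 28.2%. The median of the 9 was 0.23, beside 0.02 for all genes. The B6 low-fat arrays had a higher Gapdh difference than the B6 high-fat arrays, 1.26 ± 0.44 against 0.30 ± 0.05 (SD, n = 4 each, exact permutation p = 0.0286, the smallest this design gives, adjusted p = 0.114 over 24 comparisons). With that signal as a covariate the difference was -0.47 ± 0.21 (limma adjusted p = 0.127), and with each array's standard deviation as a covariate -0.06 ± 0.25. Leaving out 1 array at a time gave differences from -0.87 to -0.69, which were past the threshold in 2 of 8 fits, with an adjusted p of up to 0.101 without B6 low-fat replicate 4. Comparing the diet effects of both strains gave -0.90 ± 0.35 (limma adjusted p = 0.148). That contrast equals the difference between the liver strain differences on both diets, which entered the choice of Apcs. Its p-value for Apcs is thus not independent of the choice, and the B6 diet call draws on the same liver arrays.

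For the fibrinogen chains high-fat minus low-fat in B6 liver did not pass the test and was of one sign: Fga differed by -0.30 ± 0.13 (limma adjusted p = 0.113), Fgb by -0.35 ± 0.14 (adjusted p = 0.0785) and Fgg by -0.32 ± 0.18 (adjusted p = 0.236). The 3 values were close to each other, and the mean of the 8 hepatocyte markers was also the lower in B6 high-fat liver without overlap, at 11.72 to 12.00 (mean 11.89) against 12.11 to 12.25 (mean 12.19). Among these markers Alb, Ttr, Apoa1 and Ahsg are also on the list of negative acute-phase proteins read below, so their mean does not read hepatocyte content alone. The part of the shift in the marker mean in the fibrinogen values was not tested. In 129S6 liver they were -0.002 ± 0.13, 0.04 ± 0.14 and -0.11 ± 0.18. In 129S6 liver no gene of the 9 passed by limma, with 2 at an unadjusted p under 0.05, and 0.23% of all genes did. In the comparison of diet effects between the strains no gene of the 9 passed either by limma, with 2 at an unadjusted p under 0.05, where 5.49% of all genes did. Without B6 high-fat replicate 13 and 129S6 low-fat replicate 11 together, both left out after seeing the data, Apcs and Fgb passed in B6 liver. Apcs then also passed the comparison of the diet effects, a test that for Apcs is not independent of its choice.

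Saa2, Saa3 and Lcn2 showed another pattern in liver, in which 1 B6 high-fat array stood far above the rest. Saa2, by 103465_f_at, read 8.67, 8.56, 8.92 and 9.46 in B6 low-fat liver and 11.91, 9.61, 9.51 and 9.60 in B6 high-fat liver. The high-fat arrays were all the higher, and replicate 13 stood over 2 units above the rest. The difference was 1.25 ± 0.47 (limma adjusted p = 0.0726). In 129S6 liver it read 9.15, 8.46, 7.78 and 8.20 on the low-fat and 9.98, 8.69, 10.08 and 8.85 on the high-fat diet, which overlap, with a difference of 1.01 ± 0.47 (adjusted p = 0.770).

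Saa3 read 7.31, 6.84, 7.45 and 7.95 in B6 low-fat liver and 10.25, 7.06, 6.79 and 6.82 in B6 high-fat liver. Replicate 13 was again the high one, and the other 3 high-fat arrays lay within or below the low-fat range. Lcn2, by 160564_at, read 5.28, 5.11, 5.37 and 5.80 on the low-fat and 9.56, 6.51, 5.96 and 5.98 on the high-fat diet. Here every high-fat array was the higher, the difference was 1.61 ± 0.54, and over all probe sets it did not pass (limma adjusted p = 0.0519). The other Lcn2 probe set, 161684_r_at, which was the brighter on average and so stood for the gene in liver and muscle, read 6.22 in replicate 13, the lowest of its group. Replicate 13 also held the highest Hp, at 13.65, and the highest Hpx, at 12.56 for 98116_at, and it was the highest of its group for 9 of the 12 probe sets. In 129S6 liver Lcn2 by 160564_at read 4.81 to 5.30 on the low-fat and 5.31 to 6.14 on the high-fat diet, without overlap. The difference there was 0.54 ± 0.54, and by 161684_r_at it was -0.20 ± 0.13.

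In replicate 13 the mean of the 11 macrophage markers was 8.74, against 7.40 to 7.51 in the other B6 high-fat liver arrays. Lyz2 read 9.82 there and 6.78 to 7.18 in the others, and Ctss 10.19 against 7.89 to 8.16. The skeletal muscle list was raised too, at 7.09, whereas the neutrophil list was at its lowest of the group there, and the group reached 5.57. The part of these cells in the readings of Saa2, Saa3 and Lcn2 was not tested.

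**Figure D3:**
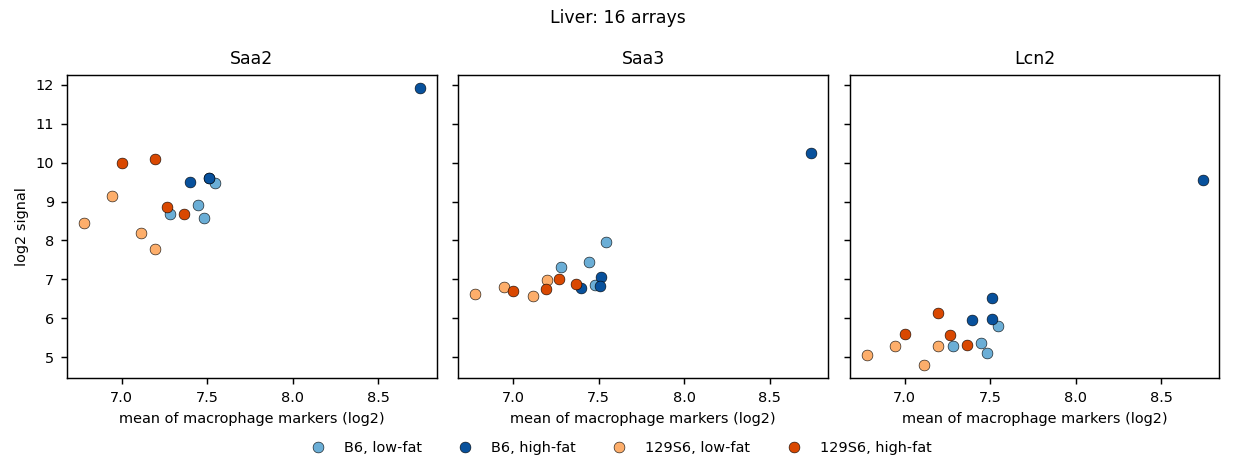
Log2 signal of Saa2 (103465_f_at), Saa3 and Lcn2 (160564_at) in the 16 liver arrays against the mean log2 signal of 11 macrophage markers in the same array; points are arrays coloured by strain and diet. B6 high-fat replicate 13 lies alone at the upper right of each panel, at a marker mean of 8.74.

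In fat, Saa3 was the one member with a strain difference past the threshold, on the low-fat diet. On the low-fat diet it read 8.65, 8.22, 7.84 and 7.26 in B6 and 6.10, 6.17 and 6.93 in 129S6, and all B6 arrays were the higher. B6 minus 129S6 was 1.59 ± 0.34 (limma adjusted p = 0.0397), or 3.02-fold. Of all genes 1.08% passed in this comparison. On the high-fat diet it read 8.77, 8.71, 8.98 and 9.01 in B6 and 8.17, 6.91 and 7.18 in 129S6, again without overlap, and the difference of 1.45 ± 0.34 did not pass (adjusted p = 0.117). No gene of the 9 passed on that diet by limma, with 4 at an unadjusted p under 0.05, where 0.436% of all genes did.

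With diet, Saa3 differed, high-fat minus low-fat, by 0.87 ± 0.31 in B6 (limma adjusted p = 0.255) and by 1.02 ± 0.36 in 129S6 (adjusted p = 0.242), and neither difference passed. In B6 fat the high-fat arrays all lay above the low-fat arrays, as for 1 of the 9 genes and 8.61% of all, and in 129S6 fat they overlapped. No other member passed a diet test in fat, where 0.279% of all genes passed in B6 and 0.751% in 129S6, and 1 of the 9 genes in each strain had an unadjusted p under 0.05. In the comparison of diet effects between the strains in fat limma called none (none at an unadjusted p under 0.05, 0% of all genes). The call on the low-fat diet was not firm. It held in 1 of 7 fits that each left out 1 array, with an adjusted p of up to 0.236 without 129S6 replicate 9. With the series of array numbers as a block the difference was 1.89 ± 0.50 (adjusted p = 0.227), and without the 5 arrays rich in epididymal transcripts, which leaves 2 arrays in each of the low-fat groups, it was 1.00 ± 0.42 (adjusted p = 0.579). Within the series that holds the B6 arrays, the lone 129S6 low-fat array, replicate 9, read 6.10, below each B6 array.

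The group means of the macrophage markers in fat ran in the same order as those of Saa3, though those of 129S6 high-fat and B6 low-fat were nearly equal, at 8.42 and 8.45. Their mean was 7.44 to 7.77 in 129S6 low-fat, 8.20 to 8.61 in 129S6 high-fat, 8.20 to 8.80 in B6 low-fat and 8.78 to 9.21 in B6 high-fat arrays, and Saa3 averaged 6.40, 7.42, 7.99 and 8.87 in these groups. All 11 markers were higher on average in B6 than in 129S6 on the low-fat diet, and 8 of 11 on the high-fat diet. High-fat means exceeded low-fat means for 9 of 11 in each strain. Within groups the order could be the reverse. In 129S6 high-fat fat the marker means were 8.20, 8.61 and 8.43 where Saa3 read 8.17, 6.91 and 7.18, and in B6 low-fat fat they were 8.29, 8.20, 8.80 and 8.53 where Saa3 read 8.65, 8.22, 7.84 and 7.26. The part of macrophage number in Saa3 was not tested. Saa2 stayed near its lowest readings in fat, from 7.21 to 7.77 by 103465_f_at.

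Hp in fat read 13.29, 13.15, 12.87 and 13.20 in B6 low-fat, 13.61, 13.80, 12.13 and 13.69 in B6 high-fat, 13.15, 12.83 and 13.14 in 129S6 low-fat and 12.88, 11.39 and 13.54 in 129S6 high-fat arrays. The groups overlapped throughout. Its low arrays, B6 replicate 7 and 129S6 replicate 13, were 2 of the 3 with a Gapdh difference over 5, and the part of RNA quality in them was not tested. B6 minus 129S6 was 0.09 ± 0.45 in low-fat and 0.70 ± 0.45 in high-fat mice (limma adjusted p = 0.994 and 0.751).

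Lcn2 in fat took high values in arrays from 3 of the 4 groups. By 160564_at it read 10.22, 10.45, 5.88 and 6.36 in B6 low-fat, 6.46, 9.31, 8.96 and 6.71 in B6 high-fat, 9.22, 6.27 and 5.32 in 129S6 low-fat, and 6.55, 5.46 and 6.17 in 129S6 high-fat fat. The arrays fell near 6 or above 8.9, with none between 6.71 and 8.96. No diet or strain difference was detected, and B6 minus 129S6 was 1.29 ± 1.22 in low-fat and 1.80 ± 1.22 in high-fat mice (limma adjusted p = 0.926 and 0.761). Fat against muscle gave 1.77 ± 0.44 by this set (0.000526 as limma's adjusted p over all probe sets) and -0.40 ± 0.10 by 161684_r_at (adjusted p = 0.000761), so the 2 sets disagreed in direction. Counted over probe sets rather than genes, 70.8% passed in fat against muscle.

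The 14 fat arrays differed in markers of the epididymis, the organ this fat pad lies against. In 5 of them the mean of the 6 epididymal markers was 7.26 to 9.01, and in the other 9 it was 5.62 to 6.51. Gpx5, a sperm-protecting enzyme of the epididymis, read 8.95 to 11.62 in the 5 and at most 6.23 in the 9, and Adam7 9.47 to 11.63 against 5.78 to 8.28. The other 4 markers overlapped between these arrays: Lcn5 read 5.63 to 11.84 against 4.01 to 8.17, Defb1 4.65 to 6.04 against 4.10 to 4.99, Adam28 8.94 to 10.14 against 8.89 to 9.61 and Spink1 3.46 to 3.69 against 3.27 to 4.00. Lcn2 read 8.96 to 10.45 in those 5 arrays and 5.32 to 6.71, with a median of 6.27, in the 9. Neutrophil markers, by contrast, were flat over the fat arrays, with list means of 5.47 to 5.86. The part of epididymal RNA in the Lcn2 values was not tested.

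**Figure D4:**
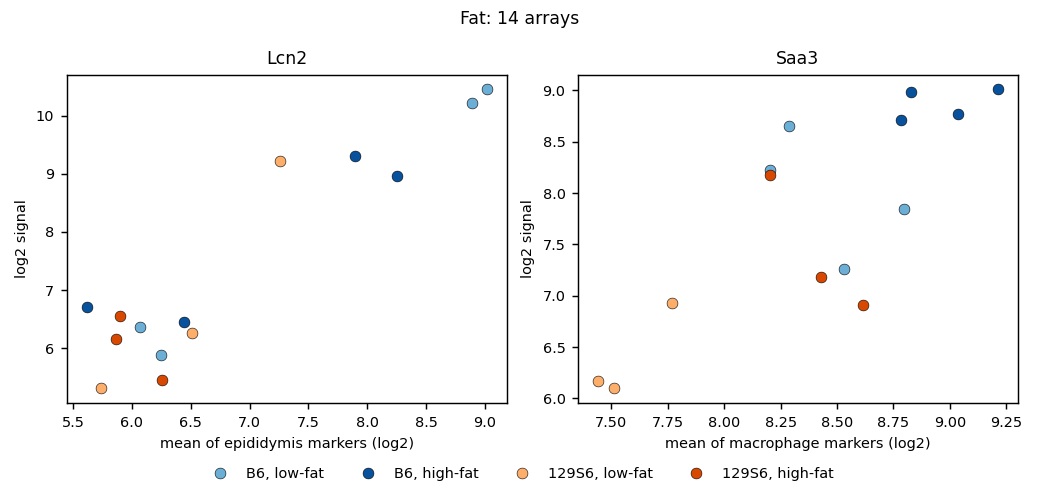
Log2 signal in the 14 fat arrays of Lcn2 (160564_at) against the mean of 6 epididymal markers (left) and of Saa3 against the mean of 11 macrophage markers (right); points are arrays coloured by strain and diet. The 5 arrays with an epididymal mean above 7 are the 5 with Lcn2 at 8.96 or more, and the 3 lowest macrophage means, in 129S6 low-fat fat, go with Saa3 from 6.10 to 6.93.

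Haptoglobin in muscle was lower in B6 high-fat than in B6 low-fat arrays, and the former were all arrays of narrow spread, as set out below. It read 9.68, 9.15 and 8.85 in B6 low-fat muscle and 7.08, 7.30, 7.28 and 7.71 in B6 high-fat muscle, with no overlap, and 7.58, 9.96, 9.14 and 9.07 in 129S6 low-fat and 8.69, 8.45, 9.31 and 8.91 in 129S6 high-fat muscle, which overlap. High-fat minus low-fat was -1.89 ± 0.41 in B6 (limma adjusted p = 0.0115), or 3.70-fold lower, and -0.10 ± 0.38 in 129S6 (adjusted p = 0.993). B6 minus 129S6 was -1.50 ± 0.38 in high-fat mice (adjusted p = 0.0135), a 2.82-fold difference, and 0.29 ± 0.41 in low-fat mice (adjusted p = 0.865). The diet effects of the strains differed by -1.79 ± 0.56, which missed the threshold (adjusted p = 0.0656).

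Hpx moved the other way in the same comparison, by 0.57 ± 0.17 for 161827_f_at (limma adjusted p = 0.0315) and 0.40 ± 0.12 for 98116_at (adjusted p = 0.0318 over all probe sets, of which 26% passed), from readings near 6 in every group. In the strain comparison of high-fat mice Lcn2 by 161684_r_at passed too, at 0.65 ± 0.23 (adjusted p = 0.0491), in none of the 8 fits that left out 1 array, and by 160564_at it did not, at 0.04 ± 0.48. The Hpx call held in 3 of 7 such fits, with an adjusted p of up to 0.144 without B6 low-fat replicate 13. So 2 of the 9 genes passed in each of these comparisons, where 26.8% of all genes passed for diet in B6 muscle and 29.3% for strain on the high-fat diet. Of the 9 genes 4 and 3 had groups that did not overlap, where 40.8% and 35.9% of all genes did. The members' shares lie near these backgrounds. For diet in B6 muscle the median of the 9 was 0.20, beside 0.16 for all genes. No member passed for diet in 129S6 muscle (none at an unadjusted p under 0.05, 0% of all genes), for strain on the low-fat diet (none at an unadjusted p under 0.05, 0.279% of all genes) or for the comparison of diet effects (3 at an unadjusted p under 0.05, 3.19% of all genes), all by limma.

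All 4 B6 high-fat muscle arrays and 129S6 low-fat replicate 9 had the narrow spread of values described above. Hp read 7.08 to 7.71 in those 5 arrays and 8.45 to 9.96 in the other muscle arrays. With the standard deviation of each array as a covariate, the diet difference of Hp in B6 muscle was -0.65 ± 0.32 (limma adjusted p = 0.390) and its strain difference on the high-fat diet -0.39 ± 0.29 (adjusted p = 0.617). In the same fit Hpx came to 0.16 ± 0.18 and Lcn2 to -0.06 ± 0.16. Leaving out B6 low-fat replicate 13 also took the diet difference of Hp over the threshold, to an adjusted p of 0.0655. The mean of 7 adipocyte markers was 6.57 to 7.01 in those 5 arrays and 7.06 to 7.73 in the other muscle arrays, and the mean of 9 skeletal muscle markers was 10.13 to 10.89 in B6 high-fat and 11.05 to 11.28 in B6 low-fat muscle. The skeletal muscle mean was 9.69 in 129S6 low-fat replicate 9, and 11.05 to 11.28 in all muscle arrays outside those 5. The mean of the 2 red blood cell markers was 7.84 to 8.54 in the 5 low-spread arrays and 9.67 to 11.79 in all other muscle arrays, and that of 5 endothelial markers was 7.04 to 7.20 against 6.54 to 6.94. The adipocyte, skeletal muscle, red blood cell and endothelial means each split the muscle arrays as Hp did, without overlap. The part of red blood cells, endothelium, fat cells or muscle cells in the Hp values was not tested.

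**Figure D5:**
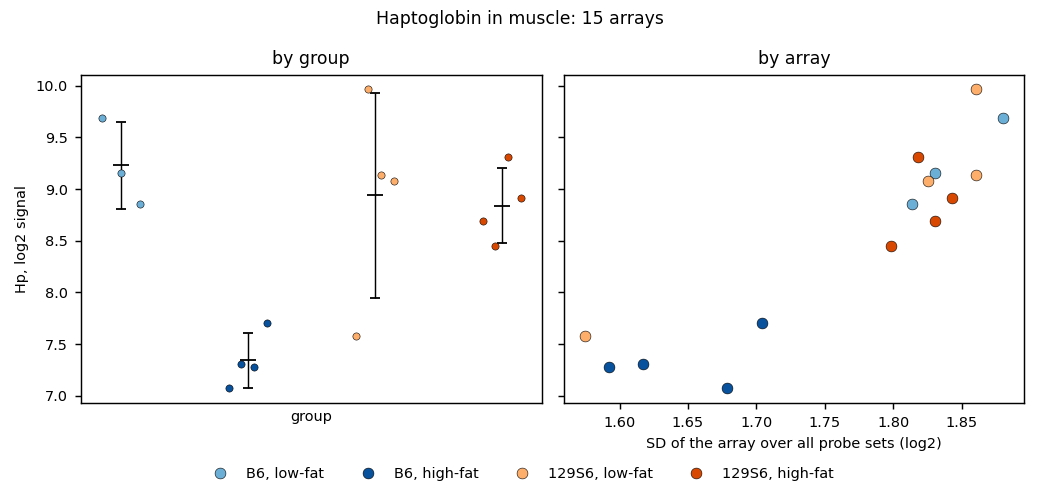
Log2 signal of Hp in the 15 muscle arrays by group (left, with mean and standard deviation of 3 or 4 arrays) and against the standard deviation of each array over all probe sets (right). The 5 arrays with a standard deviation of at most 1.70 read Hp at 7.08 to 7.71, and all others at 8.45 or more.

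Other single arrays of muscle stood out for the inducible members. Lcn2 by 160564_at read 8.11, 5.04 and 5.74 in B6 low-fat muscle, and its high array, replicate 13, had the highest value of 8 of the 9 neutrophil markers, with S100a8 at 11.90 and Camp at 11.79. Neutrophil granules are a known store of lipocalin 2, and the part of neutrophils here was not tested. Saa3 read 6.51, 8.18, 6.52 and 6.26 in 129S6 high-fat muscle, and its high array, replicate 2, also had the highest macrophage mean of that group, at 7.40 against 6.56 to 6.94. Saa2 by 103465_f_at gave a diet difference of 0.54 ± 0.20 in B6 muscle, which did not pass (limma adjusted p = 0.0568).

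Around the members, further genes of the acute-phase response were read from 6 lists, beginning with signals and transcription factors. In B6 liver 5 of the 25 measured genes of that list rose and 1 fell on the high-fat diet, with a median of 0.15. The oncostatin M receptor Osmr rose by 0.71 ± 0.11 (limma adjusted p = 0.000378), the interleukin 6 receptor Il6ra by 0.66 ± 0.16 (adjusted p = 0.00931) and the feedback inhibitor Socs1 by 0.41 ± 0.12 (adjusted p = 0.0271). The leukaemia inhibitory factor receptor Lifr fell by 1.25 ± 0.19 (adjusted p = 0.000428), and it also fell in 129S6 liver, by 1.03 ± 0.19 (adjusted p = 0.0436). Osmr differed in its diet response between the strains, by 0.85 ± 0.15 (adjusted p = 0.00354).

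Other positive acute-phase proteins moved in both directions, with 2 of 21 higher and 2 lower in B6 liver and a median of -0.08. The lipopolysaccharide coreceptor Cd14 rose by 0.66 ± 0.10 (limma adjusted p = 0.000385) and the interleukin 1 receptor antagonist Il1rn by 0.50 ± 0.14. Cd14 is also one of the 11 macrophage markers, all of which were highest of their group in B6 high-fat replicate 13. The part of macrophages in its rise was not tested. The mannose-binding lectin Mbl1 fell by 0.87 ± 0.18 and the iron hormone Hamp by 0.91 ± 0.19. Negative acute-phase proteins, which drop in inflammation, had 3 of 9 lower and none higher: F12 fell by 0.72 ± 0.10 (adjusted p = 0.000159), Ahsg by 0.38 ± 0.08 and Kng1 by 0.35 ± 0.11. Of 22 genes of coagulation and fibrinolysis 3 rose and 7 fell, among them the thrombin inhibitor Serpind1, by 0.62 ± 0.07 (adjusted p = 6.09e-05), and protein C (Proc), by 0.79 ± 0.12. Complement had 1 of 14 lower, C2, and the uptake list 1 of 14 lower, Lrp1. In B6 liver 6.21% of all genes rose and 12% fell, and the median of all genes was 0.02. The limit on diet and array series stated for B6 liver applies to each of these.

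In 129S6 liver only Lifr and C2, the latter lower by -0.56 ± 0.11 (limma adjusted p = 0.0498), passed among these lists. In fat the lipopolysaccharide-binding protein Lbp, an acute-phase protein that hands bacterial lipid to Cd14, was higher in B6 than in 129S6 by 1.48 ± 0.17 in low-fat mice (limma adjusted p = 0.000928) and by 1.54 ± 0.17 in high-fat mice (adjusted p = 0.00066). It was the only 1 of the 21 other positive acute-phase proteins past the threshold in either comparison. The limit on strain and array series stated for fat applies to both Lbp differences. In 129S6 fat the metallothionein Mt2 rose by 1.36 ± 0.21 with the high-fat diet (adjusted p = 0.0101) and C2 fell by 1.16 ± 0.21 (adjusted p = 0.0237). In B6 muscle, where the high-fat arrays are the narrow ones named above and 26.8% of all genes passed for diet with an all-gene median of 0.16, most list calls were rises. Coagulation and fibrinolysis had 5 of 22 higher and none lower, the uptake list 3 of 14 higher and 1 lower, signals 2 of 25 higher and none lower, other positive acute-phase proteins 2 of 21 higher and 2 lower, complement 1 of 14 higher and 4 lower, and negative acute-phase proteins none of 9 by limma, with 2 at an unadjusted p under 0.05. The smallest adjusted p of each list belonged to the urokinase Plau, which rose by 0.36 ± 0.11, the endocytic receptor Lrp2, which rose by 0.78 ± 0.16, the hepatocyte factor Hnf4a, which rose by 0.61 ± 0.13, the metallothionein Mt1, which fell by 1.33 ± 0.25, and the C1 inhibitor Serping1, which fell by 1.11 ± 0.25 (limma adjusted p = 0.0309, 0.00879, 0.0115, 0.0066 and 0.0127).

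The same lists were read between tissues, where 57.7% of all genes passed in liver against fat, 68% in liver against muscle and 71.5% in fat against muscle, with all-gene medians of 0.01, -0.11 and -0.07. All 9 negative acute-phase proteins were higher in liver than in fat and than in muscle, with medians of 4.87 and 5.07. Of 22 coagulation and fibrinolysis genes 13 were higher in liver than in fat and 6 lower, with a median of 3.04. Of the 21 other positive acute-phase proteins 13 were higher in liver than in fat and 5 lower, with a median of 1.30, and 12 were higher in fat than in muscle and 2 lower. Of the 25 signals and transcription factors 7 were higher in liver than in fat and 8 lower, with a median of 0.02, a share near that of all genes.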

How the data were processed

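Each 1-colour Affymetrix array was hybridised, per the labels' protocols, with labelled cRNA made from 25 µg of RNA from a pool of 2 to 3 mice. The authors deposited log2 values computed by RMA, per the submitters' processing notes. RMA removes background, forces the arrays to one distribution and summarises probes into probe sets, which compresses differences at low signal. No version of RMA, and no statement on whether the tissues were normalized together, was found in the labels. Array medians ran from 6.07 to 6.24. The number of arrays limits the precision, and p-values measure the spread between pools.

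Tests used the 10833 probe sets naming a single gene. Left out were 66 control sets, 396 sets with several symbols and 1193 without one. A gene was represented by its probe set of highest mean in the tissue, giving 8251 genes. limma 3.58.1 (R 4.3.3; lmFit and eBayes, two-sided) was run per tissue on the 4 group means, and over all arrays to compare tissues, with Benjamini-Hochberg adjustment over all genes and a threshold of 0.05. A set that did not represent its gene was adjusted over all probe sets. Errors are standard errors of the fit unless marked SD. Fits were tested on simulated data, and array quality was compared by exact permutation tests.

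The members and gene lists were chosen with earlier results of these data known. Every probe set of a member is named, with at most 4 genes per list, taken from those past the threshold in order of adjusted p. Alternatives covered the choice of probe set, a filter on dim genes, an intensity trend, quantile normalization, fewer groups, 2 quality covariates, array series, replicate numbers and leaving out arrays. Plots were made in matplotlib 3.10.9 under Python 3.11.15.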

Additional observations from a re-analysis of the deposited data

Results flagged for a closer look

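Of 108 groups of 4 arrays in which a member probe set was examined, 12 held an array set far from the other 3 by Dixon's criterion, where chance gives about 1 in 20. In B6 high-fat liver replicate 13 was far above the others for Saa2 by 103465_f_at (11.91 against 9.51 to 9.61), Saa3 (10.25 against 6.79 to 7.06) and Lcn2 by 160564_at (9.56 against 5.96 to 6.51). In 129S6 low-fat liver replicate 11 was far below for Hp (10.22 against 12.72 to 12.83). In B6 high-fat fat replicate 7 was far below for Hp (12.13 against 13.61 to 13.80). In 129S6 high-fat muscle replicate 2 was far above for Saa3 (8.18 against 6.26 to 6.52). The remaining gaps were small in log2 units. Saa2 by 100333_at was low in B6 low-fat liver replicate 2 (6.44), Hpx by 98116_at was high in B6 low-fat liver replicate 4 (11.80) and by 161827_f_at in 129S6 high-fat liver replicate 9 (10.83). Fgb was low in B6 low-fat fat replicate 3 (3.78). In B6 high-fat muscle Saa3 was high in replicate 6 (6.77) and Lcn2 by 161684_r_at in replicate 7 (7.37).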

How the results depend on the processing

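Counts are of the 9 genes past the threshold. For diet in B6 liver the count of 1 became 2 with gene-specific probe sets, 2 with quantile normalization, 3 with only the groups compared, 2 without the 2 liver arrays that stand apart (chosen after seeing the data), and 0 with the Gapdh signal or the array standard deviation as a covariate. For the difference between the strains in liver the count of 0 became 1 with the Gapdh covariate and 1 without those 2 arrays, Apcs each time. For Apcs that test is not independent of its choice by the liver strain difference. For strain on the high-fat diet in muscle the count of 2 became 1 with gene-specific probe sets, with quantile normalization and with the Gapdh covariate, Hp each time, and 0 with the standard deviation as a covariate, where Lcn2 reversed to -0.061. For diet in B6 muscle the count of 2 became 1 with quantile normalization and 0 with the standard deviation, and for the difference between the strains in muscle 0 became 1 with the Gapdh covariate. In fat, strain on the low-fat diet went from 1 to 0 with the standard deviation, with the array series as a block and without the 5 arrays high in epididymal markers (chosen after seeing the data), and strain on the high-fat diet went from 0 to 3 with the Gapdh covariate (Saa3, Apcs and Hpx). Fat against muscle went from 5 to 3 in low-fat B6 arrays alone. With gene-specific probe sets Lcn2 reversed to 0.28 for liver against muscle and to 1.77 for fat against muscle, since another probe set then stands for it. For the other changes the cause was not tested.

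Leaving out 1 array at a time gave 0 to 1 for diet in B6 liver and for its difference between the strains, 0 to 3 for diet in B6 muscle, 0 to 2 for its difference between the strains, 1 to 2 for strain on the high-fat diet in muscle, 0 to 1 for strain on each diet in fat, 6 to 7, 9 to 9 and 5 to 6 for liver against fat, liver against muscle and fat against muscle, and 0 for the other comparisons. The count for diet in B6 muscle was 0 without B6 low-fat replicate 13. Over 12 pairs of arrays that share a number, strain and diet across tissues the deviations correlated at -0.42 to 0.30, with 2 over 0.1. Whether such arrays came from the same mice cannot be told from this, as deviations in different tissues need not correlate. The replicate block in the tissue comparisons gave 6, 9 and 5 genes and changed no call, with a consensus correlation of -0.085. The series block could not be fitted for diet in B6 liver. Weak signals near 4 to 6 log2 units, as of fibrinogen in fat and muscle, limit what can be seen there.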
